A study of Homo sapiens with 6 samples.

Results

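The oxidative phosphorylation genes are the mRNAs for the protein subunits of the respiratory chain and of ATP synthase, and they are encoded in 2 genomes. In the count table of H146 cells, 102 of 28395 genes belonged to this set. They were chosen by symbol: the 13 protein-coding genes of the mitochondrial genome, and nuclear protein-coding genes whose symbols begin with NDUFA, NDUFB, NDUFC, NDUFS, NDUFV, UQCR, COX4 to COX8 or ATP5, together with *SDHA*, *SDHB*, *SDHC* and *SDHD*. Assembly factors (NDUFAF) and the ATP synthase inhibitor *ATP5IF1* were left out. The nuclear genome supplied 87 subunit genes, of which 37 belong to complex I, 4 to complex II, 9 to complex III, 19 to complex IV and 18 to complex V. The mitochondrial genome supplied 7 genes of complex I, 1 of complex III, 3 of complex IV and 2 of complex V. The remaining 2 genes, *NDUFC2-KCTD14* and *ATP5MF-PTCD1*, are read-through genes that had no count in any library. *NDUFA4* and *NDUFA4L2* were named for complex I but are placed here with complex IV, where the NDUFA4 protein is found. Cytochrome c1 (*CYC1*) falls outside the symbol rule and is described with the electron carriers.

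RNA was sequenced from NCI-H146, an established small-cell lung cancer (SCLC) cell line of wild-type genotype, on day 2 after transfection of an siRNA against *KIFC1* or of a negative control siRNA. *KIFC1* encodes a minus-end-directed kinesin motor that gathers spindle poles. Each group had 3 biological replicates, the transfected cells were of a single line, and no untransfected cells were among the 6 libraries. The comparison asked how each genome's share of the respiratory chain mRNAs stood after KIFC1 knockdown, complex by complex and replicate by replicate.

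Electrons from NADH enter the chain at complex I and those from succinate at complex II, pass through complex III to cytochrome c, and reach oxygen at complex IV. The proton gradient built by complexes I, III and IV drives ATP synthase, complex V. Mitochondrial mRNAs are transcribed as long precursors from both strands of a small circular genome and are cut out at the tRNAs between them. Nuclear subunit genes are transcribed from promoters of the nuclear genome. Each complex with subunits from both genomes therefore needs products of separate transcription systems.

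Sequences of both kinds bear on the counts. On the mitochondrial genome, *ATP8* and *ATP6* share an mRNA, as do *ND4L* and *ND4*, and their reading frames overlap, so that reads in the overlap belong to either gene. The overlaps are printed below with short flanks from hg38 (plus strand), with the bases shared by the pair in capitals. The *ATP8* and *ATP6* overlap covers chrM:8527-8572 within chrM:8515-8584, and that of *ND4L* and *ND4* covers chrM:10760-10766 within chrM:10748-10778.
ATP8/ATP6: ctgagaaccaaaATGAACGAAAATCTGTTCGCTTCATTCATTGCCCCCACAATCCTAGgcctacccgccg
ND4L/ND4: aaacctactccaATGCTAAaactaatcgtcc
The shared stretch was 46 bases for the first pair, which is 22.2% of the exonic length of *ATP8* and, with the single base that *ATP6* shares with *COX3*, 6.90% of that of *ATP6*. It was 7 bases for the second pair, or 2.36% of *ND4L*.

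Promoters of 3 nuclear subunit genes are shown because they hold words of factors known for this gene class. Whether such words relate to the shared movement of nuclear genes between libraries, described below, was not tested. The promoters are RefSeq windows of GRCh38.p14 from 250 bases before to 50 bases after an annotated start of the gene, printed in the gene's orientation. Capitals mark the words GCGCANGCG (NRF1), CCGGAAG (the ETS family, to which GABP belongs) and AAGATGGCG (YY1), searched on both strands. The windows are chr16:85799445-85799744 (plus strand) for *COX4I1*, the ubiquitous form of a regulatory subunit of complex IV, chr1:17053983-17054282 (minus strand) for *SDHB*, the iron-sulfur subunit of complex II, and chr21:25735005-25735304 (minus strand) for *ATP5PF*, a subunit of the peripheral stalk of ATP synthase. *ATP5PF* has 2 such windows, which overlap and both lie inside the gene's outermost annotated span, and the window not printed holds the ETS and YY1 words but not the NRF1 word.
COX4I1: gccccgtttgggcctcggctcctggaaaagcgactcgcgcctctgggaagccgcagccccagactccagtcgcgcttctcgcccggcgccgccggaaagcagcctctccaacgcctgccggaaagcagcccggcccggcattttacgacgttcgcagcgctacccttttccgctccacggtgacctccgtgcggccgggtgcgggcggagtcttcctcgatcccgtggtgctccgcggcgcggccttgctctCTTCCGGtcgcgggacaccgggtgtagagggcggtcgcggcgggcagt
SDHB: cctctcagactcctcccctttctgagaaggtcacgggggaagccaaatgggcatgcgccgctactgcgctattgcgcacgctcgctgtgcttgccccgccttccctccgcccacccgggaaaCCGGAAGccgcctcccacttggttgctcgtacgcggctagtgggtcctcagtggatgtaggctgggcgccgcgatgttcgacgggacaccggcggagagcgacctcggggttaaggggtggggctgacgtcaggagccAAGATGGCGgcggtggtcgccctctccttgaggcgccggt
ATP5PF: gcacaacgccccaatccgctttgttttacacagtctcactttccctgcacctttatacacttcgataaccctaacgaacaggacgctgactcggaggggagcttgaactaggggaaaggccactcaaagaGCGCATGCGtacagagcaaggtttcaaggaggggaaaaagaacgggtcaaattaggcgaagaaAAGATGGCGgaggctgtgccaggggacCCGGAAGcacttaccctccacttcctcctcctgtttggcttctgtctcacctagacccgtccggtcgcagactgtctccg
Of the 87 nuclear genes, 71 matched the table, with 85 windows. The NRF1 word occurred in 24 of those windows (28.2%), against 7.52% of all 35116 windows and 12.1% of the 16736 windows of genes tested. The ETS word occurred in 22 (25.9%, against 10.3% and 16.0%) and the YY1 word in 10 (11.8%, against 1.75% and 3.17%). The GC-rich word GGGCGG (SP1) occurred in 50 (58.8%), against 44.9% of all windows and 64.1% of those of genes tested. By complex the NRF1 word was in 2 of 3 windows of complex II, 4 of 7 of complex III and 6 of 17 of complex V, but in 10 of 39 of complex I and 2 of 19 of complex IV. These matches are a description of the windows, and whether a factor binds there was not measured.

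Library totals ran from 15392374 to 17754458 counts. *KIFC1* had 14, 4 and 14 counts in the control siRNA libraries and 1, 1 and 0 counts in the KIFC1 siRNA libraries, and was dropped by the filter on low counts. Copies of its sequence elsewhere in GRCh38 were not searched for, so whether these low counts reflect its mRNA level was not tested. In separate assays, the study reported KIFC1 knockdown by siRNAs in SCLC cells with RT-qPCR and immunoblotting. All 8 neuroendocrine SCLC markers passed that filter. Their summed level was 2041 to 2177 CPM (counts scaled to the library size) with control siRNA and 2139 to 2434 CPM with KIFC1 siRNA. The 8 markers of other cell types summed to 5.76 to 8.88 CPM and 7.79 to 10.8 CPM, with *CD3E* of T cells at 0 counts in 3 libraries. Libraries with the same replicate number deviated from their group means together across 11403 genes (correlations 0.50, 0.392 and 0.464), and those with different numbers did not (-0.447 to -0.0137).

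The mitochondrial mRNAs were by far the more abundant. In control siRNA libraries, 12 of the 13 mitochondrial genes lay above the highest nuclear subunit when levels were divided by exonic length, the exception being *ATP8*. The median mitochondrial gene stood at 5220 CPM per kb and the median of the 77 nuclear genes that passed the filter at 88.6 CPM per kb, a ratio of 58.9. Divided by coding length, so that the long untranslated ends of nuclear mRNAs do not count, the ratio of the medians was 27.3. These are control siRNA means, and reads of nuclear copies of mitochondrial DNA are not separated in them, as given below gene by gene.

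Among mitochondrial genes, *COX1*, the catalytic subunit of complex IV, was highest at 14455 CPM per kb. *COX2* (11879) and *COX3* (10841), the other core subunits of that complex, *ND4* of the complex I membrane arm (12634) and *ATP6*, the proton-channel subunit of ATP synthase (12326), followed. Cytochrome b (*CYTB*) stood at 7186 CPM per kb and *ND5* was the lowest complex I gene at 2056 CPM per kb. Genes that share an mRNA did not have like counts per kb. *ATP8* had 676 CPM per kb beside 12326 for *ATP6*, and *ND4L* had 5220 beside 12634 for *ND4*. The rule by which reads that cover both genes of a pair were counted is not given in the sources used here. *ND6*, the only protein gene read from the other strand, had 2739 CPM per kb, and since the strand setting is not given either, its mRNA and antisense transcripts over it cannot be told apart.

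**Figure D1:**
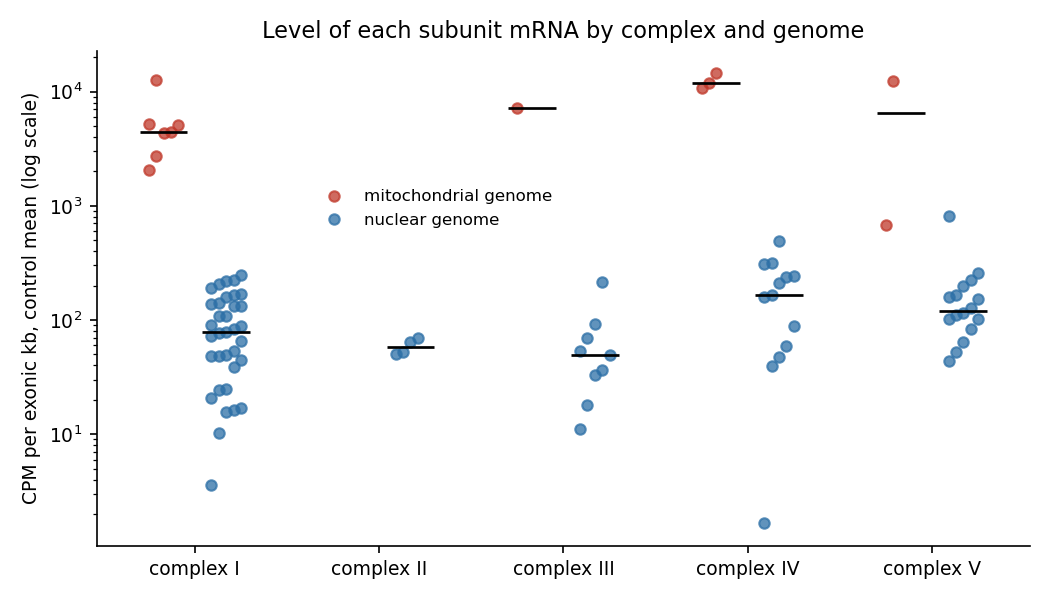
Control siRNA mean level of each subunit mRNA in CPM per exonic kb (log axis), by complex, for the mitochondrial (red) and nuclear (blue) genomes, with black lines at the medians. The mitochondrial genes sit at 2056 CPM per kb or above except *ATP8* at 676, and the highest nuclear gene, *ATP5F1B*, stands at 807.

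Among nuclear genes the order followed no complex strictly. *ATP5F1B* and *ATP5F1A*, which encode the catalytic beta and the alpha subunits of the ATP synthase head, had the most counts, with control means of 1419 ± 108 CPM (SD, n = 3) and 961 ± 85.2 CPM (SD, n = 3). Per kb, *ATP5F1B* led complex V at 807 CPM, *COX6A1* led complex IV at 489 CPM, *NDUFB9* led complex I at 247 CPM, *UQCRH*, the hinge protein of complex III, led its complex at 216 CPM, and *SDHC*, a membrane anchor, led complex II at 68.9 CPM. The 4 subunits of complex II lay between 50.7 and 68.9 CPM per kb, a narrower range than that of any other complex. For complexes I, III, IV and V the medians were 78.5, 49.4, 166 and 121 CPM per kb.

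Where a subunit has several forms, H146 cells held the widely expressed form and little or nothing of the tissue-restricted form. *COX4I1* had 185 ± 13.98 CPM (SD, n = 3) in control libraries and *COX4I2*, the lung and hypoxia form, had 0 to 10 counts per library over all 6 libraries, with 1 to 2 in the controls. *COX6A2* and *COX7A1*, the heart and muscle forms, had 0 to 2 and 1 to 8 counts per library over all 6 libraries. *COX6A1* and *COX7A2* had control means of 262 ± 26.7 and 141 ± 23.7 CPM (SD, n = 3). The testis forms *COX6B2* and *COX7B2* had 2 to 8 and 0 to 1 counts per library, against control means of 103 ± 16.3 CPM for *COX6B1* and 97.5 ± 17.3 CPM for *COX7B* (SD, n = 3). *COX8C* was listed at 0 and *COX8A* had 156 ± 29.3 CPM (SD, n = 3). *NDUFA4* had 120 ± 17.3 CPM and its hypoxia-induced relative *NDUFA4L2* had 1.57 ± 0.42 CPM (SD, n = 3). *UQCRHL*, a near copy of *UQCRH*, had 3.04 ± 0.58 CPM against 116 ± 14.3 CPM (SD, n = 3). The 3 genes for the identical c-ring protein of ATP synthase were all expressed, with control means of 74.6 ± 8.88 CPM for *ATP5MC1*, 162 ± 17.98 CPM for *ATP5MC2* and 137 ± 13.5 CPM for *ATP5MC3* (SD, n = 3).

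Some members could not be read from these counts. Of the 87 nuclear genes, 77 passed the filter, and the 10 that did not were *NDUFA3*, *NDUFA6*, *COX4I2*, *COX6A2*, *COX6B2*, *COX7A1*, *COX7B2*, *COX8C*, *ATP5F1E* and *ATP5MGL*. *NDUFA6* was listed at 0 in every library and *NDUFA3* at 0 to 2 counts. Both encode widely expressed complex I subunits, and 94.4% and 90.4% of the 32-base words of their mRNAs also occur on alternate sequences of GRCh38, as do 94.3% of those of *COX8C*. *ATP5F1E*, the epsilon subunit of ATP synthase, had 0 to 5 counts per library with 0% of its words on alternate sequences. A count of 0 allows up to 3 counts, and these floors and all counts carry counting error only. Copies also touch expressed members. Of the mitochondrial mRNAs, *COX1* (68.4%), *ATP6* (62.8%) and *ND2* (55.9%) had most of their words elsewhere in the genome, *CYTB* (6.58%) and *ND3* (3.49%) few. Among nuclear members the same held for *SDHC* (74.6%), *COX6A1* (68.4%) and *SDHD* (65.5%).

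In the comparison of KIFC1 siRNA with control siRNA, the summed level of the mitochondrial genes did not separate the groups. It was 107619.8, 91952 and 72675 CPM in control replicates 1, 2 and 3 and 72798, 120306 and 81944 CPM in KIFC1 siRNA replicates 1, 2 and 3. KIFC1 siRNA replicate 2 was the highest library and control replicate 3 the lowest, 1.66-fold apart, and the groups overlapped across nearly the whole range. The difference, KIFC1 siRNA minus control siRNA, was -0.00 on the log2 scale (exact two-sided permutation test over libraries, p = 1; the smallest p that 3 against 3 libraries allow is 0.1). In such bulk RNA, fewer mitochondria-rich cells and less mitochondrial RNA per cell cannot be told apart. The nuclear sum was 10073, 10088 and 8440.1 CPM with control siRNA and 10839, 10232 and 8849 CPM with KIFC1 siRNA. Replicate 3 was the lowest of its group in both, and each KIFC1 siRNA library stood above the control library of the same number, by 0.11, 0.02 and 0.07 on the log2 scale. The groups overlapped, with a difference of 0.06 (exact permutation p = 0.5).

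The ratio of mitochondrial to nuclear counts, which needs no scaling between libraries, was 10.7, 9.11 and 8.61 with control siRNA and 6.72, 11.8 and 9.26 with KIFC1 siRNA. The lowest and the highest libraries were both KIFC1 siRNA libraries, replicates 1 and 2. The log2 difference was -0.07 (exact permutation p = 1), and within replicate numbers it was -0.67, 0.37 and 0.10, so its sign was not shared. By complex the log2 difference was -0.13 for complex I (p = 0.9), -0.09 for complex III (p = 0.7), 0.02 for complex IV (p = 0.9) and -0.15 for complex V (p = 0.7), all from the same exact permutation test and with groups that overlapped. In each of the 4 complexes KIFC1 siRNA replicate 1 had the lowest ratio and KIFC1 siRNA replicate 2 was above the control library of its number. The ratio itself differed between complexes. Its control mean was 23.4 ± 2.12 (SD, n = 3) for complex IV, 12.4 ± 1.77 for complex I, 9.59 ± 0.41 for complex III and 2.21 ± 0.45 for complex V, and these depend on the number and length of the genes summed.

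**Figure D2:**
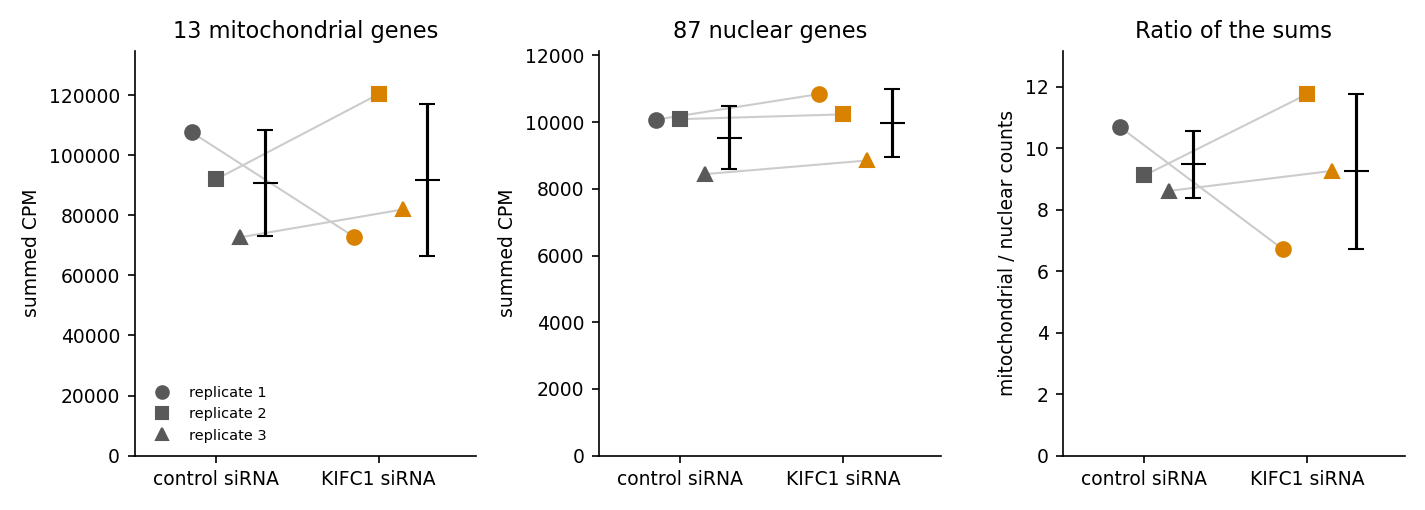
Summed CPM of the 13 mitochondrial genes (left) and of the 87 nuclear genes (middle) and the ratio of their counts (right) in each library, with symbols for the replicate number, grey lines joining equal numbers and bars for the group mean ± SD (n = 3). The mitochondrial sum crosses between the groups, from 72798 to 120306 CPM within KIFC1 siRNA alone, while the nuclear sum keeps within 8440.1 to 10839 CPM.

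Gene by gene, 0 of the 90 members that passed the filter were called at an adjusted p under 0.05 in edgeR's quasi-likelihood F-test, with Benjamini-Hochberg adjustment over all 14776 genes tested, of which 105 were called (0.711%). At an unadjusted p under 0.05, 1 member was below the threshold, *NDUFA2*, against 9.24% of all genes tested. With the replicate number as a block, 1 member was called, again *NDUFA2*, against 5.78% of all genes. DESeq2 and limma-voom each called 0 members, against 1.85% and 0.623% of all genes tested. The groups did not overlap for 2 members, *NDUFC2* and *UQCRC2*, against 15.5% of all genes tested. The members' counts were thus at or below the share over all genes by each of these rules. The smallest adjusted p among the members was 0.469.

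The log2 fold changes were small and differed in sign between the genomes. Among nuclear genes that passed the filter, 60 had a positive and 17 a negative value, with a median of 0.07 (quartiles 0.00 and 0.12), beside a median of 0.01 and 52.1% positive over all genes tested. Among the 13 mitochondrial genes, 5 were positive and 8 negative, with a median of -0.06. The nuclear medians were 0.05 for complex I (25 of 35 positive), 0.05 for complex II (3 of 4), 0.04 for complex III (7 of 9), 0.10 for complex IV (11 of 13) and 0.11 for complex V (14 of 16). Members share their libraries and are not independent, so these counts carry no test. The nuclear median turned to -0.02 without control siRNA replicate 3 and was 0.15 without KIFC1 siRNA replicate 3, and the mitochondrial median ran from -0.32 without KIFC1 siRNA replicate 2 to 0.16 without control siRNA replicate 1.

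The intervals of the fit without the replicate number were wide beside these values. The median half-width of the 95% confidence interval of the log2 fold change was 0.29 for nuclear members, 0.32 over all genes and 0.46 for mitochondrial genes. The mitochondrial mRNAs varied more between replicates of a group than other genes did, with a median within-group SD of 0.39 on the log2 CPM scale, against 0.20 for nuclear members and 0.18 for all genes tested. The lowest bound of any mitochondrial gene was -0.70 (*ND6*) and the highest 0.53 (*COX3*). Once the replicate number entered the fit, the standard error was smaller for all 77 nuclear members, with a median of 0.09 against 0.13, and for 5 of the 13 mitochondrial genes, with a median of 0.28 against 0.21.

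**Figure D3:**
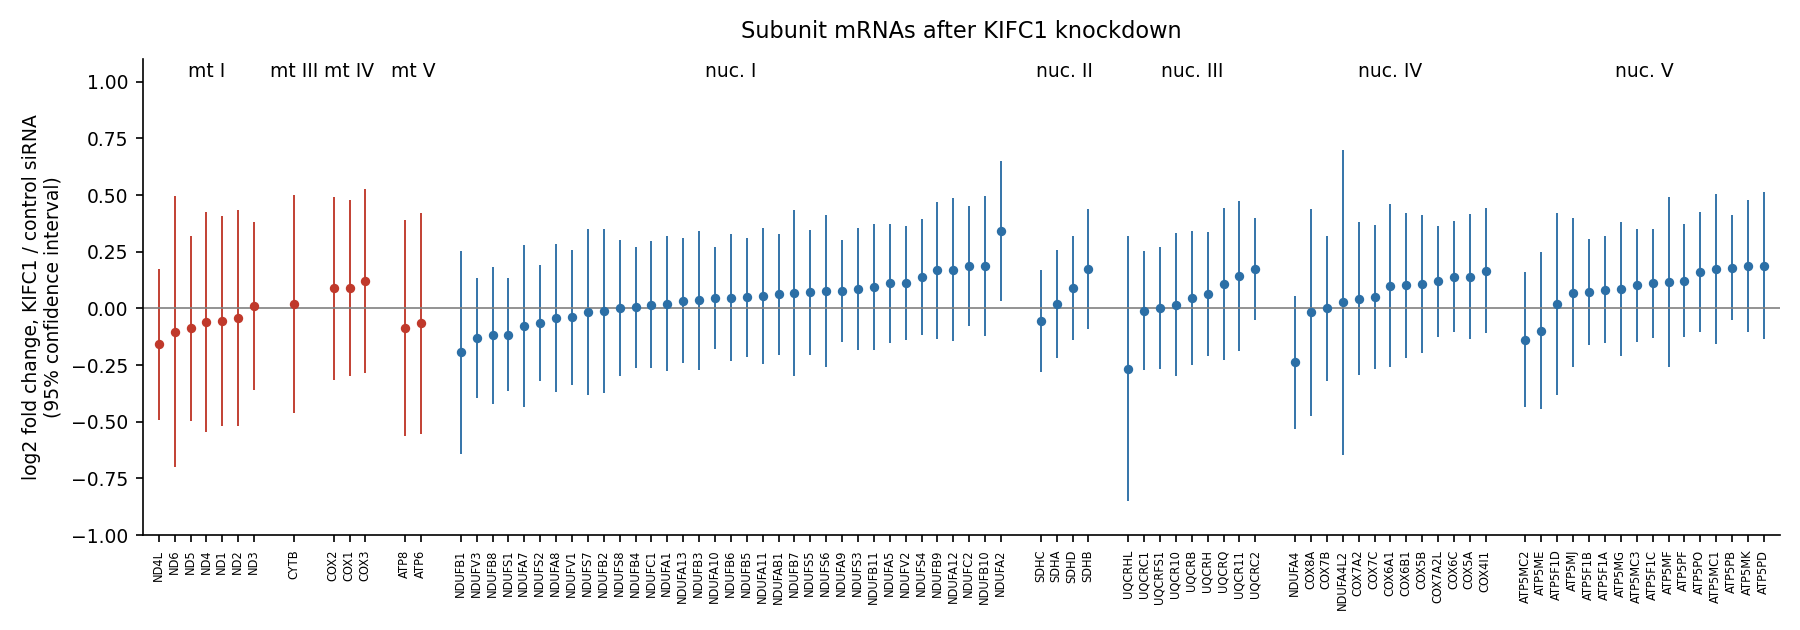
Log2 fold change (KIFC1 siRNA over control siRNA) of the 90 members that passed the filter, with 95% confidence intervals, grouped by genome (red, mitochondrial; blue, nuclear) and complex and ordered by value. Every interval reaches across 0 except that of *NDUFA2* (0.03 to 0.65).

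*NDUFA2* (NCBI gene ID 4695), an accessory subunit of the matrix arm of complex I, lies on chromosome 5 of GRCh38 from 140645285 to 140647630. Its level was 33.6, 35.1 and 26.8 CPM with control siRNA and 44.4, 42.4 and 34.2 CPM with KIFC1 siRNA. Each KIFC1 siRNA library stood above the control library of the same number, but KIFC1 siRNA replicate 3 was below the highest control library. The fitted log2 difference was 0.34 (standard error 0.14), and adjusted p was 0.469 in edgeR's Benjamini-Hochberg adjusted quasi-likelihood F-test, and 0.0348 in the same test with the replicate number as a block. Over all the alternatives its adjusted p ranged from 0.0342 to 1.00. Exons of *IK* and *TMCO6* on the opposite strand cover 27.4% of its exonic length, and reads of overlapping genes cannot be told apart where strand was not used. The log2 fold changes of these neighbours were 0.02 and -0.03.

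In complex I the other end of the range was *NDUFB1*, an accessory subunit of the membrane arm, at -0.19 (14.3, 13.8 and 8.50 CPM with control siRNA and 12.2, 10.3 and 9.37 CPM with KIFC1 siRNA). Control replicate 3 was the lowest of all 6 libraries, and the groups overlapped. *NDUFB9*, the most abundant nuclear complex I mRNA per kb, had a log2 fold change of 0.17 (95% confidence interval -0.13 to 0.47). *NDUFC2* had 36.9, 38.1 and 30.3 CPM with control siRNA and 41.3, 39.0 and 39.6 CPM with KIFC1 siRNA, a log2 fold change of 0.19 with an adjusted p of 0.731 in edgeR's Benjamini-Hochberg adjusted quasi-likelihood F-test. Its groups did not overlap, with 38.1 CPM in the highest control library and 39.0 CPM in the lowest KIFC1 siRNA library.

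Complex II is made from nuclear genes alone and is also an enzyme of the citric acid cycle. *SDHA*, the flavoprotein that oxidizes succinate, had 183, 170 and 166 CPM with control siRNA and 189.9, 182 and 155 CPM with KIFC1 siRNA, and a log2 fold change of 0.02 (95% confidence interval -0.22 to 0.26). *SDHB* had 56.5, 51.1 and 46.6 CPM and 62.3, 60.6 and 51.3 CPM, a log2 fold change of 0.18 (-0.09 to 0.44). *SDHC* and *SDHD*, the membrane anchors, were at -0.06 (-0.28 to 0.17) and 0.09 (-0.14 to 0.32). In all 4 genes the groups overlapped, and the within-group SD was lower than in the other complexes, with a median of 0.10 on the log2 scale.

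In complex III, *UQCRC2* (NCBI gene ID 7385), a core subunit of the matrix side, had 142, 131 and 124 CPM with control siRNA and 143, 147 and 157 CPM with KIFC1 siRNA. The groups did not overlap, by the margin between 141.6 and 143.0 CPM. The fitted log2 difference was 0.17 (standard error 0.10), and adjusted p was 0.692 in edgeR's Benjamini-Hochberg adjusted quasi-likelihood F-test. *UQCRHL* had the lowest value of all members, -0.27 (-0.85 to 0.32), on 1.96 to 3.69 CPM per library, while *UQCRH* was at 0.06 (-0.21 to 0.34). Of the words of these near copies, 48.6% for *UQCRH* and 46.9% for *UQCRHL* occur elsewhere in the genome, so the split of reads between them is uncertain. Mitochondrial *CYTB*, the catalytic cytochrome of the complex, had 8929, 8844 and 6826 CPM with control siRNA and 5959, 11914 and 7071 CPM with KIFC1 siRNA, a log2 fold change of 0.02 (-0.46 to 0.50). Its highest and lowest libraries were both in the KIFC1 siRNA group.

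In complex IV, *COX4I1* had the highest nuclear value, 0.17 (-0.11 to 0.44). It had 192, 194 and 169 CPM with control siRNA and 226, 226 and 171 CPM with KIFC1 siRNA, so that KIFC1 siRNA replicate 3 fell among the controls. *NDUFA4* had the lowest, -0.24 (-0.53 to 0.06), with 132, 128 and 100.3 CPM against 112, 106 and 87.6 CPM. It was lower in the KIFC1 siRNA library of each number, opposite to most of the complex, but the groups overlapped and its adjusted p was 0.679 (edgeR's Benjamini-Hochberg adjusted quasi-likelihood F-test). *COX6A1*, *COX6B1*, *COX7A2*, *COX7A2L*, *COX7B*, *COX8A* and *NDUFA4L2* had log2 fold changes of 0.10, 0.10, 0.04, 0.12, 0.00, -0.02 and 0.03. The mitochondrial core subunits were all slightly positive. *COX1* had 25174, 22522 and 19173 CPM with control siRNA and 19589, 30202 and 21420 CPM with KIFC1 siRNA, a log2 fold change of 0.09 (-0.30 to 0.48). *COX2* was at 0.09 (-0.31 to 0.49) and *COX3* at 0.12 (-0.29 to 0.53).

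In complex V, *ATP5PD*, a peripheral stalk subunit, had the highest value, 0.19 (-0.14 to 0.51), and *ATP5MC2* the lowest, -0.14 (-0.44 to 0.16). The other genes for the same c-ring protein had values of 0.17 (*ATP5MC1*) and 0.10 (*ATP5MC3*). *ATP5F1B* had 1485, 1478 and 1295 CPM with control siRNA and 1579.9, 1517 and 1380.4 CPM with KIFC1 siRNA, a log2 fold change of 0.07 (-0.16 to 0.31). Mitochondrial *ATP6* had 10784, 8279 and 6120.4 CPM with control siRNA and 6173, 10689.7 and 7191 CPM with KIFC1 siRNA, a log2 fold change of -0.07 (-0.55 to 0.42), and *ATP8* was at -0.09 (-0.56 to 0.39). For *ATP6* the control libraries spanned all 3 KIFC1 siRNA libraries.

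The 7 mitochondrial complex I genes had values between -0.16 and 0.01. *ND4L* was at -0.16, *ND6* at -0.10, *ND5* at -0.09, *ND4* at -0.06, *ND1* at -0.06 and *ND2* at -0.04, with *ND3* at 0.01. *ND4*, the most abundant, had 21376, 17535 and 13316 CPM with control siRNA and 12365, 22627 and 15073 CPM with KIFC1 siRNA. The spread within each group was many times the difference between them, and adjusted p for these 7 genes was 0.851 or above in edgeR's Benjamini-Hochberg adjusted quasi-likelihood F-test.

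The libraries themselves showed a clearer pattern than the groups. Each member's log2 CPM was compared with its own mean over all 6 libraries, so a difference between the groups stays in these deviations. All 13 mitochondrial genes were above their 6-library mean in control replicate 1 and in KIFC1 siRNA replicate 2, with median deviations of 0.28 and 0.42. All 13 were below it in control replicate 3 and in KIFC1 siRNA replicate 1, with medians of -0.32 and -0.37, and 12 of 13 were below it in KIFC1 siRNA replicate 3 (-0.15). Over all genes tested the median deviation of each library was between -0.00 and 0.01.

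The nuclear members moved as a block too, but not in the same libraries. In replicate 3, 75 of 77 were below their own 6-library mean with control siRNA and 65 of 77 with KIFC1 siRNA. The median deviations were -0.21 and -0.18. In KIFC1 siRNA replicate 1, 76 of 77 were above that mean (median 0.18), in the library where all 13 mitochondrial genes were below theirs. In the other 3 libraries, control replicates 1 and 2 and KIFC1 siRNA replicate 2, from 60 to 63 of 77 were above. The replicate number thus went with the nuclear members (low in replicate 3 of both groups) and less so with the mitochondrial ones, which in replicate 1 lay on opposite sides in the 2 groups. A library's deviation is 1 value shared by all its genes, so these are descriptions of 6 libraries. RNA quality and preparation order were not among the labels, and their part was not tested.

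**Figure D4:**
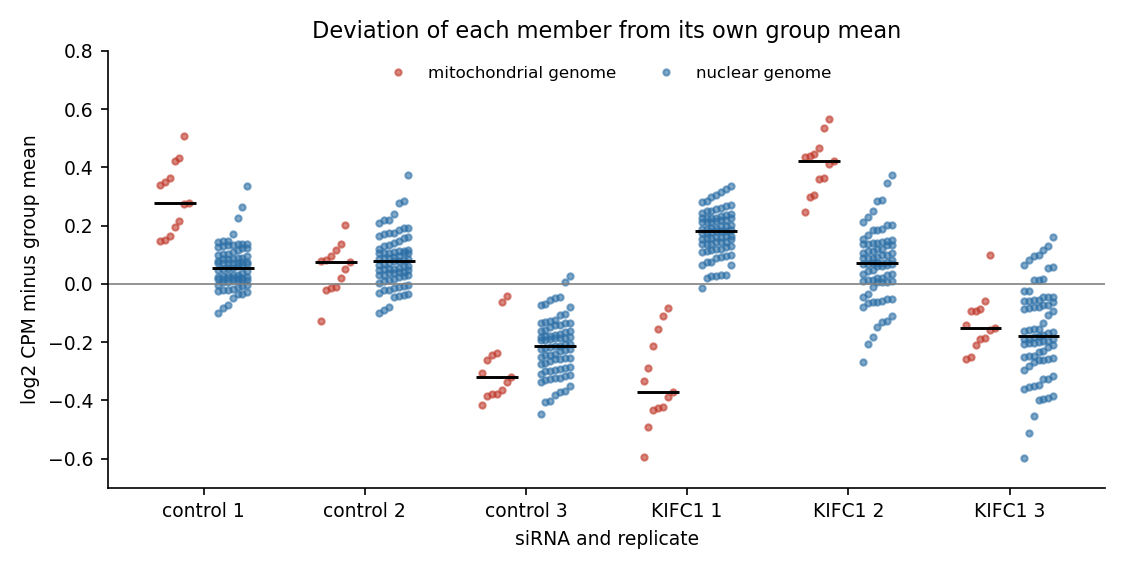
Deviation of each member's log2 CPM from its own mean over all 6 libraries, shown in each library. Red marks 13 mitochondrial and blue 77 nuclear genes, with black lines at the medians. The drawn title and axis name the group mean, but the values are centred on all 6 libraries. The medians of both genomes lie below 0 in replicate 3 of either group, and in KIFC1 siRNA replicate 1 the genomes lie on opposite sides, at medians of -0.37 and 0.18.

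Within the mitochondrial genome the balance of the complexes can be read without regard to how much mitochondrial RNA a library held. *COX1* took 23.4% to 26.9% of the counts on the 13 genes and *ND4* took 16.99% to 19.9%, while *ATP8* took 0.13% to 0.18%. The ratio of complex IV to complex I counts, chosen after the values were seen, was 1.07, 1.11 and 1.17 with control siRNA and 1.38, 1.17 and 1.22 with KIFC1 siRNA. The groups did not overlap, though control replicate 3 and KIFC1 siRNA replicate 2 were nearly level. The log2 difference was 0.17 (exact permutation p = 0.1, the smallest the design allows, and not adjusted for the choice), and 0.37, 0.08 and 0.06 within replicate numbers. Without KIFC1 siRNA replicate 1 it was 0.10. Over the nuclear genes the same ratio differed by 0.02 (exact permutation p = 0.6).

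Gene by gene, *COX3* was the only gene of the 13 whose share did not overlap between the groups. Its share was 9.41%, 9.34% and 9.32% with control siRNA and 11.1%, 9.83% and 9.53% with KIFC1 siRNA. The margin was that between 9.41% and 9.53%. By CPM, a measure unlike these shares, the groups did not overlap for 15.5% of all genes tested, and for *COX3* they overlapped. *ND1*, *ND4L*, *ND5* and *ND6* had a lower share in the KIFC1 siRNA library of every replicate number. Shares add up to the whole, so a larger share of some genes is a smaller share of others. The ratios of complex III and of complex V to complex I differed by 0.05 and 0.01 on the log2 scale, with groups that overlapped.

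**Figure D5:**
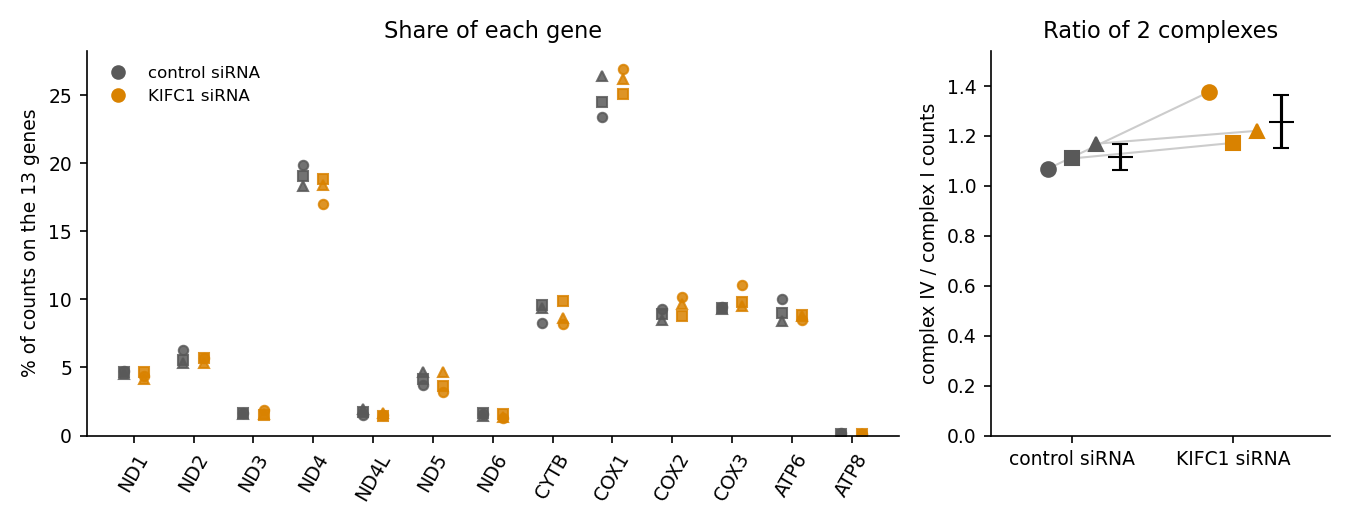
Left, each gene's share of the counts on the 13 mitochondrial genes, in percent, by library (grey, control siRNA; orange, KIFC1 siRNA; circle, square and triangle for replicates 1, 2 and 3). Right, the ratio of complex IV to complex I counts with the group mean ± SD (n = 3), which runs from 1.07 to 1.17 with control siRNA and from 1.17 to 1.38 with KIFC1 siRNA.

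The genes that make and serve the respiratory chain were read in the same fit. Their lists were written from general knowledge, but with earlier results of these data known. A call of a list gene is therefore not independent of those results. None of the 5 lists held a gene with an adjusted p under 0.05 in edgeR's Benjamini-Hochberg adjusted quasi-likelihood F-test, and 7 of the 155 genes that passed the filter over the lists had an unadjusted p under 0.05 (4.52%, against 9.24% of all genes tested). DESeq2 called 2 of the 155 genes, *PPARD* and *PRKAA1*, against 1.85% of all genes tested. With the replicate number as a block 6 were called (3.87%, against 5.78%). Of 61 assembly factors that passed the filter, 35 had a positive and 26 a negative log2 fold change, with a median of 0.04. With the replicate number as a block, *HIGD2A*, which helps assemble complex IV, was called higher (0.33, adjusted p 0.0397) and *TTC19*, a complex III factor, lower (-0.31, adjusted p 0.0445) in the same test.

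For mitochondrial transcription and RNA processing, 24 of 30 genes were positive, with a median of 0.05. The mitochondrial RNA polymerase *POLRMT* was at 0.07, the transcription and packaging factor *TFAM* at 0.10, and *LRPPRC* and *SLIRP*, which together stabilize mitochondrial mRNAs, at 0.13 and 0.04. With the block, *ANGEL2* was called lower, from 55.6 ± 1.59 to 43.6 ± 2.06 CPM (SD, n = 3; log2 fold change -0.35, adjusted p 0.0239 in edgeR's quasi-likelihood F-test). Mitochondrial DNA maintenance had 10 positive and 10 negative values, with a median of 0.02 and no call with the block.

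Of the regulators of mitochondrial biogenesis, 5 of 17 had a positive value, with a median of -0.08 (quartiles -0.11 and 0.06). *PPARD*, a fatty-acid-sensing nuclear receptor, had 6.06, 6.57 and 6.21 CPM with control siRNA and 3.26, 3.69 and 3.43 CPM with KIFC1 siRNA, with no overlap. The fitted log2 difference was -0.86 (standard error 0.19), and adjusted p was 0.0619 in edgeR's Benjamini-Hochberg adjusted quasi-likelihood F-test and 0.00376 with the block. *PRKAA1*, a catalytic subunit of AMP-activated protein kinase, had 44.5, 42.7 and 40.0 CPM and 64.4, 52.6 and 77.8 CPM, also with no overlap. The fitted log2 difference was 0.62 (standard error 0.14), and adjusted p was 0.0829 in the same edgeR test and 0.000564 with the block. *NRF1*, the factor whose word is common in member promoters, was at -0.01, and *PPARGC1A*, the PGC-1 alpha coactivator, was near 0 in all libraries (0.04 ± 0.03 CPM with control siRNA and 0.09 ± 0.10 CPM with KIFC1 siRNA; SD, n = 3).

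Of 27 genes for electron carriers and other enzymes, 21 were positive, with a median of 0.05. *CYC1*, the cytochrome c1 of complex III, and *CYCS*, the cytochrome c that carries electrons from there to complex IV, were at 0.04 and 0.09. With the block, *COQ8A*, needed for coenzyme Q synthesis, was called higher (0.29, adjusted p 0.0450 in edgeR's quasi-likelihood F-test). None of these calls with the block had an adjusted p under 0.05 in the edgeR fit of all 6 libraries without it, after the filter on low counts.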

How the data were processed

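Counts were deposited by the authors as whole numbers of reads per gene, without normalization, for 28395 NCBI gene IDs. Per the labels and the study's methods, reads were aligned to GRCh38 with HISAT2 2.2.1 and counted with featureCounts 2.0.8. The submitters' processing notes also name DESeq2 1.46.0 and R 4.4.2. The annotation, the strand setting and the treatment of reads with several positions are not given in the sources used here. Of the IDs, 27745 matched a RefSeq symbol.

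Counts of 3 control siRNA and 3 KIFC1 siRNA libraries were fitted with edgeR 4.0.16 (filterByExpr, TMM, robust quasi-likelihood, Benjamini-Hochberg over 14776 of 23245 genes with a count, threshold 0.05) in R 4.3.3. The biological coefficient of variation was 13.1%. CPM use TMM library sizes. Sums and ratios were compared with exact permutation tests (scipy 1.17.1). For the nuclear sum a sign-flip test within replicate numbers is also given. Intervals are 95% and cover the spread between replicates. The fit was tested on simulated data of this comparison (14776 genes): of 200 genes given a log2 change of 1, 182 were recovered (91%), with 9 unchanged genes called. The simulated counts had the same spread for all genes, taken from a fit with the replicate block, and no replicate effect. Recovery under the replicate effect of these libraries, or for the more variable mitochondrial genes, was not tested. Alternatives used DESeq2 1.42.0, limma 3.58.1, other scalings and filters, the replicate block and each library left out. The labels share replicate numbers, and same-numbered libraries deviated together in each of the 3 pairs (correlation of 0.392 or above).

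Lengths came from GENCODE canonical transcripts and copies from 32-base words of GRCh38. The members and lists were chosen with earlier results of these data known. Named genes are the mitochondrial genes, called members, the highest and lowest fold change and highest level per kb of each complex, alternative forms, complex II, called genes of the lists and 8 fixed ones. *NDUFC2*, *ATP5F1A*, *ATP5PF*, the members that failed the filter and the neighbours of *NDUFA2* were named after their values were seen. No deposited column was left out.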

Additional observations from a re-analysis of the deposited data

How the results depend on the processing

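With the replicate number as a block, 1 member was called (*NDUFA2*), and 1 when mitochondrial genes were also left out of the scaling. No other member's call changed with the block. Every other alternative, including DESeq2, limma-voom, 3 scalings, 2 filters and each library left out, called 0 members. Over all genes tested, the block gave 402 higher and 452 lower genes against 49 and 56 without it, DESeq2 gave 126 and 148, no filter 121 and 144, and leaving out a library from 9 higher and 15 lower (control siRNA replicate 3) to 194 and 274 (KIFC1 siRNA replicate 3). Of the other lists' genes, DESeq2 and no filter each called *PPARD* and *PRKAA1*, and without KIFC1 siRNA replicate 3 edgeR called these, *HIGD2A* (adjusted p 0.0233) and *ANGEL2* (0.0422). *PRKAA1* was also called without KIFC1 siRNA replicate 2 (0.0305).

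Leaving out each library in turn moved the log2 difference of the mitochondrial sum between -0.21 and 0.15, that of the nuclear sum between -0.02 and 0.15 and that of their ratio between -0.26 and 0.15, so none of the 3 kept its sign throughout. The complex IV to complex I ratio kept its sign (0.10 to 0.22), and its other alternatives, chosen after seeing the data, gave 0.09 to 0.19. The median of all genes was moved by no scaling by more than 0.1. Median half-widths of the intervals without the block were 0.29 for nuclear and 0.46 for mitochondrial genes on the log2 scale, and the block narrowed those of all 77 nuclear members. With a library left out, 2 libraries stay in its group and edgeR pools the spread over both groups. The cause of these shifts was not tested.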

Other observations

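The ribosomal RNAs of the mitochondrial genome, which are not protein genes and so not members, followed the mitochondrial mRNAs in part. *RNR2*, the large ribosomal RNA, had 9859, 8650.3 and 7295 CPM with control siRNA and 9098, 11054 and 9588 CPM with KIFC1 siRNA. It was highest in KIFC1 siRNA replicate 2 and lowest in control replicate 3, as were the mRNAs, but KIFC1 siRNA replicate 1 was above 2 of the 3 control libraries. *RNR1*, the small ribosomal RNA, had 975, 894 and 749 CPM and 892, 1240.1 and 912 CPM. The ratio of protein-gene counts to *RNR2* counts was 10.9, 10.6 and 9.96 with control siRNA and 8.001, 10.9 and 8.55 with KIFC1 siRNA, lowest in KIFC1 siRNA replicates 1 and 3. The groups overlapped, with a log2 difference of -0.21 (exact two-sided permutation test, p = 0.3).

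Members whose promoter window held the ETS word had a median log2 fold change of 0.09 (21 genes) and those without it 0.05 (43 genes). For the NRF1 word the medians were 0.07 (22 genes) and 0.07 (42 genes), and for the YY1 word 0.03 (8 genes) and 0.07 (56 genes). These are descriptions of genes that share 6 libraries, with no test.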
